A study of Homo sapiens with 18 samples.

Results

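The genes described here are the potassium channel genes of the KCN nomenclature, followed through lowering and raising of the long noncoding RNA PURPL in cultured human skin fibroblasts. They were taken by name, as every protein-coding row of both raw count tables whose gene symbol starts with KCN, and 96 of the 61544 genes listed met that rule. By family these were 40 alpha subunits of voltage-gated channels, 16 inward rectifiers, 15 two-pore-domain leak channels, 8 calcium- or sodium-activated channels and 17 accessory subunits. The accessory genes form no pore of their own, so the name covers channel regulators as well as channels.

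Potassium channels let potassium leave the cell along its gradient, which sets the resting membrane potential and ends electrical excitation. Voltage-gated channels open on depolarisation, inward rectifiers and two-pore-domain channels hold the membrane near rest, and calcium- and sodium-activated channels link the potential to ions inside the cell. Many of these genes are known from neurons and muscle, and fibroblasts also carry potassium currents, among them those of the large-conductance calcium-activated channel. Accessory subunits bind the alpha subunits and change their gating or their transport to the membrane.

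Poly(A) RNA was sequenced from BJ cells, an established line of human skin fibroblasts, in 18 libraries that form 6 groups of 3. In the knockdown experiment, CRISPR interference (a guided repressor that lowers transcription of its target) was aimed at PURPL by either of 2 guides, sgPURPL-1 (guide 1 here) and sgPURPL-2 (guide 2), and set against the control sgCtrl. The other experiment raised PURPL, with cultures PURPL-OE-1 (line 1 here) and PURPL-OE-2 (line 2) set against a control of their own, Ctrl. The series asks what PURPL does in senescence, the lasting exit of cells from division. The labels give no age, passage, treatment or vector for any group, and do not say whether a culture is a clone, whether the lines differ in construct, or whether the replicates are separate cultures. The p-values therefore measure the spread between these libraries, which may be technical.

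Knockdown libraries held 11444513 to 12896040 counts each, and overexpression libraries 18858976 to 27985649. PURPL itself stood at 71.1 to 94.3 CPM (counts divided by the TMM-scaled library size, in parts per 1e+06) in the sgCtrl libraries, 14.1 to 17.9 with guide 1 and 17.9 to 21.5 with guide 2. In the overexpression table it stood at 59.2 to 67.3 CPM in Ctrl, 166 to 178 in line 1 and 114 to 129 in line 2. No library went against its label. Fibroblast markers (10 of 10 with counts) summed to 15800 to 17100 CPM in the knockdown libraries, and in the other table to 23500 to 24000 in Ctrl, 28500 to 29700 in line 1 and 30800 to 32100 in line 2. Markers of keratinocytes (KRT1 at 0 counts in all libraries), endothelial cells and immune cells summed to at most 14.7, 7.29 and 2.35 CPM in any library.

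The strand setting of the counting was not given, and overlap with genes of the other strand was not examined. Reads shared by 2 genes of the same strand appear not to have been counted. KCNA1 and KCNA6 are among 9429 genes that lie wholly inside a same-strand neighbour and all have 0 counts, so neither can be measured. With these, 36 of the 96 genes overlap a same-strand neighbour. A gene that overlaps in part loses the shared reads and is uncertain, which holds for 18 of the 39 genes tested here, KCNB2, KCNIP4, KCNAB3, KCNQ5, KCNMA1, KCNN2, KCNT2, KCNJ15, KCNJ6, KCND3, KCNH1 and KCNK15 among them. Levels are given per gene and are not compared between genes, since no value per length of transcript was used. The length listed for all 61544 genes is the whole gene span, so counts may include reads in introns. That holds also for long genes with few counts, such as KCNIP4 and KCNB2.

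The fibroblasts gave counts for 85 of the 96 KCN genes in at least 1 library, 75 of them under knockdown and 85 under overexpression or its control. Counts sufficed to test 32 genes for knockdown and 38 for overexpression, with 31 in both. Of the 57 genes tested in neither, 46 had 1 to 109 counts over all 18 libraries (median 11.5). The other 11 had 0 counts throughout. They included KCNA1, KCNA6, KCNA10 and KCNV2 (voltage-gated), KCNJ13 (inward rectifier), KCNK4, KCNK5, KCNK12 and KCNK16 (two-pore-domain), and KCNT1 (sodium-activated).

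The share of genes with enough counts differed by family. It was 12 of 17 accessory genes and 13 of 40 voltage-gated alpha subunits, with 7 of 16 inward rectifiers, 4 of 15 two-pore-domain channels and 3 of 8 calcium- or sodium-activated channels. Most of the 96 genes therefore had too few counts to be compared between groups. Of the 57 untested genes, 18 overlap a same-strand neighbour, so their low counts may hold lost reads as well as low expression, and these cannot be told apart. The near-identical inward rectifier copies KCNJ12 and KCNJ18, between which reads can be misplaced, were among the untested genes. Summed over both tables, of which the overexpression table is the deeper, the genes with the most reads were KCNK2 (20878 counts), KCNMA1 (18806), KCNAB2 (14353), KCNT2 (12323) and KCNE4 (7340). The order was another in the knockdown table, where KCNK2 had 4185 counts, below KCNAB2 (7713) and KCNMA1 (7565), and KCNT2 had 1418, below KCNQ5 (2537).

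**Figure D1:**
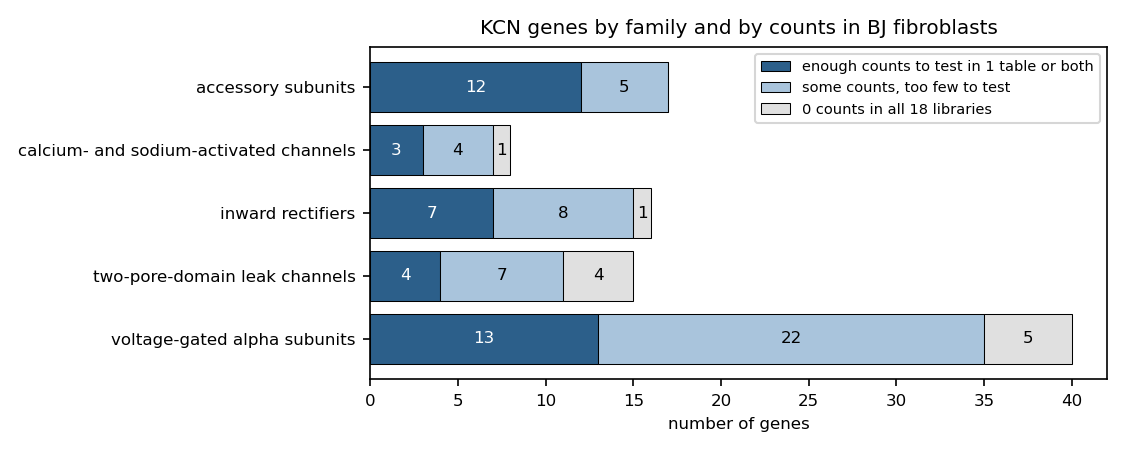
Number of KCN genes (horizontal axis) in each of 5 families, split into genes with enough counts for a test in 1 table or both, genes with some counts but too few, and genes with 0 counts in all 18 libraries. Accessory subunits have the fullest bar of testable genes (12 of 17), and the voltage-gated family holds the most untestable ones (22 with few counts and 5 with 0).

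Of the KCN genes, 72 have an entry in a table of RefSeq promoters (GRCh38.p14). The 250 bases before a transcription start are printed for 3 genes that stand for different patterns below. For each gene 1 window lying before the gene span was used, and other starts were not examined. The KCNK2 window ends short of the gene span used for counting. KCNIP4 rose with each guide, KCNS3 fell with guide 1 and rose in each overexpression line, and KCNK2 fell in each overexpression line. Sequences run 5′ to 3′ on the gene's strand, and capitals mark each GC box (GGGCGG, or CCGCCC on the other strand).

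KCNIP4 (chr4:21948773-21949022, minus strand): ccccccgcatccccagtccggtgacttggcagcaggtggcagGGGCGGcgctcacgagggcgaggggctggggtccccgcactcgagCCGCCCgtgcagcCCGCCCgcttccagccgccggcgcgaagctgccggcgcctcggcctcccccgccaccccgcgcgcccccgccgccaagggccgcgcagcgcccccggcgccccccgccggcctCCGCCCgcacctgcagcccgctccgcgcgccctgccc
KCNS3 (chr2:17877597-17877846, plus strand): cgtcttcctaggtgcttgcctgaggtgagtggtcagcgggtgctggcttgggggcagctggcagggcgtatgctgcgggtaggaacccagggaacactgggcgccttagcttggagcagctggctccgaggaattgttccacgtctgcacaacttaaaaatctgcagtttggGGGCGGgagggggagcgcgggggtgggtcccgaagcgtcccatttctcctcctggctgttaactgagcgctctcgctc
KCNK2 (chr1:215005292-215005541, plus strand): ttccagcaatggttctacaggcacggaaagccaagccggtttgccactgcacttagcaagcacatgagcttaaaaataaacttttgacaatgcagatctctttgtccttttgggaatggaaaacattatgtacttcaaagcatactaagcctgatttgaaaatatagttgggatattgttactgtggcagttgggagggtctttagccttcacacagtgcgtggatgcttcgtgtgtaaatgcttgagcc

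The KCNIP4 window holds 4 GC boxes and 38 CG dinucleotides, and 83.6% of its bases are G or C. The KCNS3 window holds 1 GC box, 14 CG dinucleotides and 62.4% G or C, and the KCNK2 window no GC box, 4 CG dinucleotides and 42.8% G or C. Over all 35116 windows of the table the medians are 11 CG dinucleotides and 58.0% G or C, and 42.6% of windows hold a GC box. None of the 3 windows holds TATAAA (10.7% of all windows), CCAAT (32.0%) or the p53 half-site (5.57%), each searched on both strands. These are descriptions of the letters, and no binding was measured.

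With PURPL lowered, the KCN genes changed in both directions. KCNIP4, KCNJ3 and KCNE4 rose with each guide, KCNB2, KCNIP3, KCNAB3 and KCNQ5 fell with each guide, and KCNK6 fell with guide 1 and rose with guide 2. The largest fold changes of genes called with both guides were in KCNB2 (5.44-fold lower with guide 1, 5.82-fold lower with guide 2), KCNIP4 (4.80- and 5.32-fold higher) and KCNJ3 (4.31- and 5.38-fold higher). With guide 1, 15 of the 32 tested genes passed an adjusted p of 0.05, where 24.5% of all 13923 genes tested did. Of the 32, 6 were higher (11.6% of all genes) and 9 lower (12.9%), and 5 passed with a change of at least 2-fold (3.45%). With guide 2, 16 of 32 passed, against 24.4% of all genes. Here 8 were higher (11.9%) and 8 lower (12.4%), and 6 changed at least 2-fold (3.1%). The median log2 fold change of the 32 genes was -0.03 with guide 1 and 0.00 with guide 2, and over all genes it was 0.00 with either guide. The median size of the change, without its sign, was 0.54 (guide 1) and 0.53 (guide 2) on the log2 scale among the 32 genes, beside 0.17 over all genes, without matching for depth. Both guides were compared with the same 3 sgCtrl libraries, so a call shared by the guides does not rest on separate controls. All tests are edgeR's quasi-likelihood test with Benjamini-Hochberg adjustment over all genes of the table.

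Among the voltage-gated alpha subunits, 7 of 12 passed with guide 1 and 5 of 12 with guide 2, where 24.5% and 24.4% of all genes did. Counts within a family rest on few genes and are descriptions. KCNB2 (chr8:72537225-72938349), which encodes a delayed-rectifier subunit, stood at 2.60, 1.87 and 1.88 CPM in the sgCtrl libraries, 0.622, 0.238 and 0.262 with guide 1 and 0.661, 0.168 and 0.235 with guide 2. Every guide library lay below every control library. The log2 fold change was -2.44 ± 0.427 (SE) with guide 1 (adjusted p = 5.42e-05) and -2.54 ± 0.433 with guide 2 (adjusted p = 4.17e-05), from 78, 14 and 13 counts summed over each group. KCNQ5 (chr6:72621792-73198853), a subunit of the slow M-type current, stood at 28.5, 27.9 and 31.2 CPM in sgCtrl, 17.6, 16.9 and 17.8 with guide 1 and 22.5, 22.1 and 21.5 with guide 2. The 3 groups did not overlap. KCNQ5 fell by 0.74 on the log2 scale with guide 1 (SE 0.0881, adjusted p = 1.01e-07) and by 0.41 with guide 2 (SE 0.0855, adjusted p = 0.000612).

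Other voltage-gated genes passed with a single guide. KCNQ3, which pairs with other KCNQ subunits in the M-type current, stood at 0.954, 1.09 and 1.41 CPM in sgCtrl, 0.156, 0.476 and 0.262 with guide 1 and 0.496, 0.420 and 0.705 with guide 2. All guide libraries lay below the controls. It fell with guide 1 (log2 fold change -1.92 ± 0.479, adjusted p = 0.00308), and its change with guide 2 was -1.08 ± 0.422 (adjusted p = 0.0620). KCNS3, an electrically silent subunit that modifies delayed rectifiers, stood at 11.5, 12.1 and 11.5 CPM in sgCtrl, 8.01, 7.21 and 8.19 with guide 1 and 11.1, 9.74 and 7.44 with guide 2. It fell with guide 1 (-0.59 ± 0.138, adjusted p = 0.00186) and stood at -0.32 ± 0.134 with guide 2 (adjusted p = 0.0856). Neither of these guide-to-guide differences passed (adjusted p = 0.433 for KCNQ3 and 0.297 for KCNS3). KCNC4, a fast-inactivating channel, rose with guide 1 by 0.39 on the log2 scale. KCND1, which carries transient A-type current, rose with guide 1 by 1.09, a call lost with DESeq2 (adjusted p = 0.0637) and without any of sgCtrl replicates 1, 2 and 3 (0.0759, 0.0714 and 0.0642) or guide 1 replicates 1 and 3 (0.0631 and 0.207).

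Guide 2 raised KCNG1 (chr20:51003656-51023107), another silent modifier of delayed rectifiers. It stood at 0.260, 0.311 and 0.313 CPM in sgCtrl, 0.545, 0.793 and 0.349 with guide 1 and 0.991, 1.51 and 1.41 with guide 2. Guide libraries were all above the controls, and the change passed with guide 2 (4.29-fold, log2 SE 0.460, adjusted p = 0.000924) but not with guide 1 (0.92 ± 0.545, adjusted p = 0.237). The difference between the guides missed the threshold (adjusted p = 0.0616). KCNA3, known from T cells, fell with guide 2 by 1.87 on the log2 scale, from 27 counts in the sgCtrl group to 7. That call did not hold with DESeq2 (adjusted p = 0.0696). It was also lost without sgCtrl replicate 2 or 3 (0.225 and 0.0955), without guide 1 replicate 1, 2 or 3 (0.0541, 0.0550 and 0.0544) and without guide 2 replicate 1 or 2 (0.177 and 0.0762).

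KCNS2 and KCNH1 differed between the guides. KCNS2 (chr8:98426958-98432853), a silent subunit like KCNS3, stood at 3.90, 5.06 and 4.07 CPM in sgCtrl, 7.08, 6.74 and 10.1 with guide 1 and 2.81, 4.62 and 3.29 with guide 2. Only the guide 1 libraries lay apart from the controls. KCNS2 rose with guide 1 (log2 fold change 0.86 ± 0.188, adjusted p = 0.000837) and stood at -0.29 ± 0.215 with guide 2 (adjusted p = 0.362). The difference of guide 2 from guide 1 was -1.15 ± 0.195 on the log2 scale (adjusted p = 0.000108). KCNH1 (chr1:210676823-211134165), an ether-a-go-go channel also studied in proliferating cells, stood at 4.86, 4.83 and 7.05 CPM in sgCtrl, 5.06, 7.21 and 6.71 with guide 1 and 11.0, 10.7 and 12.1 with guide 2. Here the guide 2 libraries stood apart. Its log2 fold change was 0.17 ± 0.173 with guide 1 (adjusted p = 0.513) and 1.01 ± 0.158 with guide 2 (adjusted p = 1.24e-05), and the guides differed by 0.84 ± 0.155 (adjusted p = 0.000351).

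Of the 9 accessory subunits tested, 4 passed with guide 1 and 6 with guide 2, where 24.5% and 24.4% of all genes did. KCNIP4 (chr4:20728606-21948772), a calcium-binding partner of the A-type channels, stood at 0.607, 0.234 and 0.783 CPM in sgCtrl, 2.88, 2.54 and 2.44 with guide 1 and 2.97, 2.85 and 2.90 with guide 2. Every guide library was far above the highest control library. It rose by 2.26 ± 0.338 on the log2 scale with guide 1 (adjusted p = 5.37e-06) and by 2.41 ± 0.332 with guide 2 (adjusted p = 1.63e-06), from 20 counts in the sgCtrl group to 97 and 107. KCNIP3 (chr2:95297327-95386077), of the same family of calcium sensors, went the other way. It stood at 18.5, 18.4 and 20.04 CPM in sgCtrl, 9.96, 11.4 and 9.67 with guide 1 and 11.5, 11.3 and 11.0 with guide 2, with no overlap of guides and controls. KCNIP3 fell by 0.87 on the log2 scale with guide 1 (SE 0.109, adjusted p = 2.36e-07) and by 0.75 with guide 2 (SE 0.107, adjusted p = 2.74e-06).

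KCNE4 (chr2:223052190-223198399), a single-span subunit that inhibits several voltage-gated channels, stood at 15.2, 16.8 and 16.6 CPM in sgCtrl, 30.2, 28.0 and 30.8 with guide 1 and 29.3, 28.0 and 33.8 with guide 2. All guide libraries were far above the controls and the guides overlapped. KCNE4 rose by 0.87 ± 0.0940 on the log2 scale with guide 1 (adjusted p = 1.76e-08) and by 0.91 ± 0.0937 with guide 2 (adjusted p = 9.69e-09). KCNAB3 (chr17:7921859-7929856), a beta subunit of voltage-gated channels, stood at 2.86, 2.49 and 2.82 CPM in sgCtrl, 2.02, 0.872 and 1.40 with guide 1 and 1.90, 1.343 and 1.33 with guide 2. Its groups of guide and control libraries did not overlap, and its log2 fold changes were -0.92 ± 0.287 (adjusted p = 0.0178) and -0.83 ± 0.284 (adjusted p = 0.0309). The guide 1 call was lost without guide 1 replicate 2 or 3 (adjusted p = 0.127 and 0.0517). The guide 2 call was lost with DESeq2 (0.0751), without sgCtrl replicate 1 or 3 (0.0627 and 0.0637; without replicate 2 it lay at the threshold itself) and without guide 2 replicate 2 or 3 (0.102 and 0.113).

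KCNAB2 (chr1:5990927-6101193), another beta subunit and one of the KCN genes with the most reads, stood at 73.5, 74.4 and 73.0 CPM in sgCtrl, 75.6, 78.4 and 68.7 with guide 1 and 60.4, 59.8 and 61.5 with guide 2. Only guide 2 stood apart, by -0.28 ± 0.0658 on the log2 scale (adjusted p = 0.00182), and guide 1 showed 0.01 ± 0.0648 (adjusted p = 0.916). KCNMB4, a beta subunit of the large-conductance calcium-activated channel, stood at 29.8, 27.6 and 21.4 CPM in sgCtrl, 28.7, 27.2 and 28.4 with guide 1 and 33.0, 31.1 and 30.9 with guide 2. It rose with guide 2 by 0.27 ± 0.0950 (adjusted p = 0.0364). That call was lost with DESeq2 (0.0668), without sgCtrl replicate 3, the lowest of the controls (log2 fold change 0.14, adjusted p = 0.256), and without guide 2 replicates 1, 2 or 3 (0.123, 0.0735 and 0.0623).

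Of the 4 inward rectifiers tested, KCNJ3 (chr2:154697855-154858354), a G-protein-gated channel subunit known from heart and brain, rose with each guide. It stood at 0.347, 0.389 and 0.313 CPM in sgCtrl, 2.02, 1.19 and 1.40 with guide 1 and 1.49, 2.098 and 2.19 with guide 2. The control libraries were closely grouped and lay below every guide library. Its log2 fold change was 2.11 ± 0.419 with guide 1 (adjusted p = 0.000292) and 2.43 ± 0.402 with guide 2 (adjusted p = 2.71e-05), from 13 counts in the sgCtrl group to 57 and 71. KCNJ8, the pore of a channel closed by ATP, fell with guide 1 (-0.49 ± 0.106, adjusted p = 0.000732) and stood at 0.06 ± 0.101 with guide 2 (adjusted p = 0.720). KCNJ2, a strong inward rectifier, fell with guide 2 (-0.76 ± 0.222, adjusted p = 0.0123) and stood at -0.03 ± 0.203 with guide 1 (adjusted p = 0.930). The KCNJ2 call was lost without guide 2 replicate 2 (adjusted p = 0.0852).

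Of the 4 two-pore-domain channels tested, 1 passed against sgCtrl with each guide (25.0%), near the shares of all genes (24.5% and 24.4%). It was KCNK6 (chr19:38319845-38332076), a weak inward rectifier of this family, which passed in opposite directions. It stood at 15.8, 13.9 and 12.1 CPM in sgCtrl, 7.70, 9.19 and 8.11 with guide 1 and 17.7, 16.1 and 18.1 with guide 2. Guide 1 lay below all controls and guide 2 above them. The log2 fold change was -0.74 ± 0.125 with guide 1 (adjusted p = 3.87e-05) and 0.32 ± 0.113 with guide 2 (adjusted p = 0.0393), and the guides differed by 1.05 ± 0.122 (adjusted p = 3.06e-07). The guide 2 rise was lost with DESeq2 (0.0873), with no low-count filter (0.0613), without sgCtrl replicate 2 or 3 (0.0943 and 0.168) and without guide 2 replicate 1 or 3 (0.101 and 0.128).

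KCNK15 (chr20:44745865-44752313), a family member that gives no current on its own, stood at 0.260, 1.01 and 0.235 CPM in sgCtrl, 0.156, 0.159 and 0.436 with guide 1 and 1.07, 1.18 and 1.02 with guide 2. A single control library, replicate 2, was as high as the guide 2 libraries. KCNK15 was higher with guide 2 than with guide 1 by 2.11 ± 0.558 on the log2 scale (adjusted p = 0.0121), and neither guide differed from sgCtrl (adjusted p = 0.266 and 0.101). That difference was lost without guide 1 replicate 1 or 2 (adjusted p = 0.0798 and 0.0808). KCNK2, the mechanically and lipid-gated leak channel TREK-1, stood at 38.3, 40.0 and 37.0 CPM in sgCtrl, 39.5, 38.4 and 35.4 with guide 1 and 36.4, 36.8 and 37.7 with guide 2. Its groups overlapped, with log2 fold changes of -0.03 ± 0.0748 (adjusted p = 0.850) and -0.06 ± 0.0750 (adjusted p = 0.638).

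All 3 calcium- and sodium-activated channels tested passed with a single guide. Guide 1 had 1 of these calls and guide 2 had 2, where 24.5% and 24.4% of all genes passed. KCNMA1 (chr10:76869601-77638369), the pore of the large-conductance calcium-activated channel, stood at 74.8, 79.9 and 76.3 CPM in sgCtrl, 53.8, 57.9 and 57.6 with guide 1 and 68.5, 74.6 and 70.6 with guide 2. Guide 1 was lower than every control, and guide 2 lay between. KCNMA1 fell with guide 1 (-0.45 ± 0.0659, adjusted p = 4.02e-06) and stood at -0.11 ± 0.0647 with guide 2 (adjusted p = 0.221), and the guides differed (0.34 ± 0.0662, adjusted p = 0.000685). KCNN2 (chr5:114055926-114496500), a small-conductance calcium-activated channel, fell with guide 2 (-0.70 ± 0.148, adjusted p = 0.000594) from 12.1, 12.2 and 10.4 CPM to 7.85, 8.14 and 5.40, and stood at 9.41, 11.1 and 12.2 with guide 1. KCNT2 (chr1:196225779-196609225), a sodium-activated channel, rose with guide 2 (0.72 ± 0.116, adjusted p = 1.72e-05) from 8.93, 9.57 and 11.4 CPM to 15.5, 17.5 and 16.4, and stood at 11.7, 12.6 and 11.5 with guide 1. Of 4 tested smooth muscle and pericyte markers, CNN1 and CSPG4 were lower with each guide, where 12.9% and 12.4% of all genes were. Their log2 fold changes were -0.86 and -0.59 with guide 1, and -0.32 and -0.47 with guide 2. LMOD1 was higher with guide 2 (0.36), where 11.9% of all genes were. The 6 markers summed to 153 to 177 CPM with guide 1, against 212 to 223 in sgCtrl and 212 to 241 with guide 2, none at 0 in all libraries. Neural and Schwann cell markers, 6 genes of which 2 could be tested, summed to 158 to 171 CPM in sgCtrl, 128 to 130 with guide 1 and 136 to 148 with guide 2. Melanocyte markers, 6 genes, summed to 50.7 to 60.9 CPM in sgCtrl, 70.7 to 77.2 with guide 1 and 51.8 to 58.4 with guide 2. Nearly all of that sum was MITF, which rose with guide 1 (0.36, adjusted p = 0.000350), while the melanocyte genes MLANA and TYR had 4 and 10 counts over all 18 libraries. The part of these lists in the KCN changes was not tested, and in bulk libraries fewer cells of a type and less RNA per cell cannot be told apart.

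**Figure D2:**
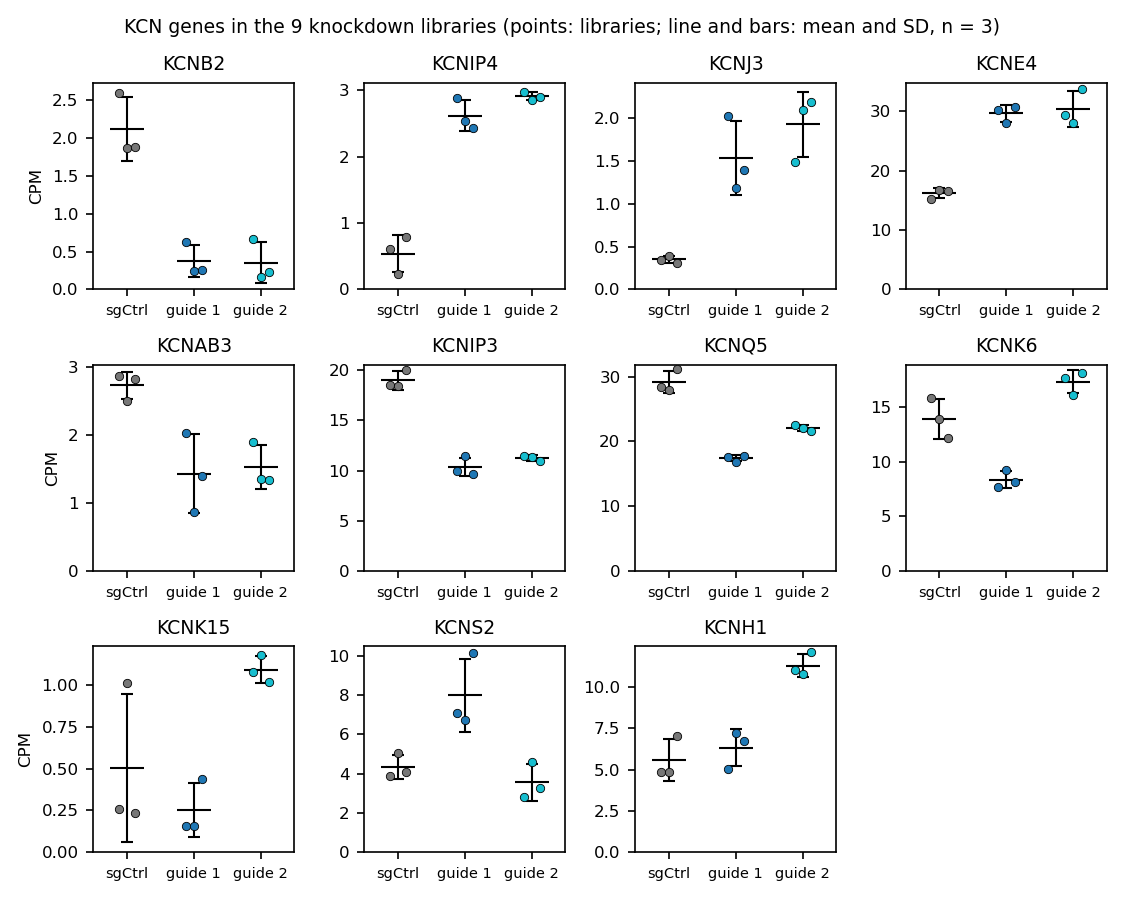
CPM (vertical axis, starting at 0) of 11 KCN genes in the 9 knockdown libraries, in panels by gene: points are libraries, and the line and bars are the group mean and SD (n = 3). KCNB2, KCNIP3, KCNAB3 and KCNQ5 lie lower with both guides, KCNIP4, KCNJ3 and KCNE4 higher, and KCNK6, KCNK15, KCNS2 and KCNH1 separate guide 1 from guide 2.

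Compared directly, the guides differed in 11 of 32 KCN genes, where 9.25% of all genes did. With guide 2, 7 were higher (5.51% of all genes) and 4 lower (3.74%), and 3 differed by at least 2-fold (1.18%), which were KCNK6, KCNK15 and KCNS2. KCNB2, KCNIP4, KCNE4 and KCNJ3 did not differ between the guides at the threshold (adjusted p = 0.960, 0.809, 0.872 and 0.609). Over the 9 knockdown libraries, the KCN genes whose log2 CPM ran most like that of KCNB2 were KCNAB3 (Pearson r 0.923), KCNIP3 (0.903) and KCNQ5 (0.824), a description of libraries that share depth and group. The differences of KCNN2, KCNQ5, KCNJ2 and KCNK15 were the ones lost when single libraries were left out. KCNN2 was at adjusted p = 0.0609 and 0.0843 without replicate 3 of guide 1 or of guide 2. KCNQ5 was at 0.0687 without guide 1 replicate 2 and 0.0511 without guide 2 replicate 1. KCNJ2 was also lost with DESeq2 (0.0834), reached 0.206 without guide 2 replicate 2 and missed without sgCtrl replicate 2 (0.0502), guide 1 replicates 1 and 2 (0.174 and 0.156) and guide 2 replicate 1 (0.111).

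With PURPL raised, the KCN genes again changed in both directions. KCND3, KCNS2, KCNS3, KCNMB4, KCNJ3 and KCNK6 rose in each line, and KCNJ15, KCNJ6, KCNQ5, KCNQ3, KCNN2, KCNMA1, KCNK2 and KCNT2 fell in each line. Among these genes called in both lines, the largest changes were in KCNJ15 (12.9-fold lower in line 1 and 3.46-fold lower in line 2), KCND3 (3.90- and 3.33-fold higher) and KCNJ6 (2.66- and 4.85-fold lower). In line 1, 18 of 38 tested genes passed, where 39.6% of all 15267 genes did. Of these 9 were higher (19.5% of all genes) and 9 lower (20.1%), and 5 changed at least 2-fold (7.41%). In line 2, 18 of 38 passed, where 38.5% did. Again 9 were higher (18.9%) and 9 lower (19.6%), and 7 changed at least 2-fold (7.24%). These shares of KCN genes, 47.4% in each line, were close to those of all genes. The median log2 fold change was 0.00 in line 1 and -0.13 in line 2, beside 0.01 over all genes in either. The median size of the change was 0.50 (line 1) and 0.48 (line 2) on the log2 scale, beside 0.24 over all genes, again unmatched for depth. Both lines share the 3 Ctrl libraries. Of 10 fibroblast markers, 8 were higher in line 1 and 9 in line 2, where 19.5% and 18.9% of all genes were. Smooth muscle and pericyte markers summed to 187 to 231 CPM in Ctrl, 320 to 361 in line 1 and 315 to 345 in line 2. Of 6 tested, 4 were higher and 1 lower in line 1, and 2 were higher and 1 lower in line 2. Of all genes 19.5% and 18.9% passed as higher, and 20.1% and 19.6% as lower. CNN1 and LMOD1 were higher in each line, and CSPG4 was lower in each. These marker changes accompanied the KCN changes, and their part in them was not tested. Neural and Schwann cell markers summed to 111 to 122 CPM in Ctrl, 141 to 151 in line 1 and 105 to 110 in line 2. Of the 2 that could be tested, SNAP25 was lower in each line (log2 fold changes -1.22 and -1.51), where 20.1% and 19.6% of all genes were. The other was higher in line 1 (0.41) and did not pass in line 2. Melanocyte markers summed to 52.1 to 55.6 CPM in Ctrl, 70.8 to 78.0 in line 1 and 72.8 to 74.8 in line 2, again nearly all from MITF, which rose in each line (0.47 and 0.46).

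**Figure D3:**
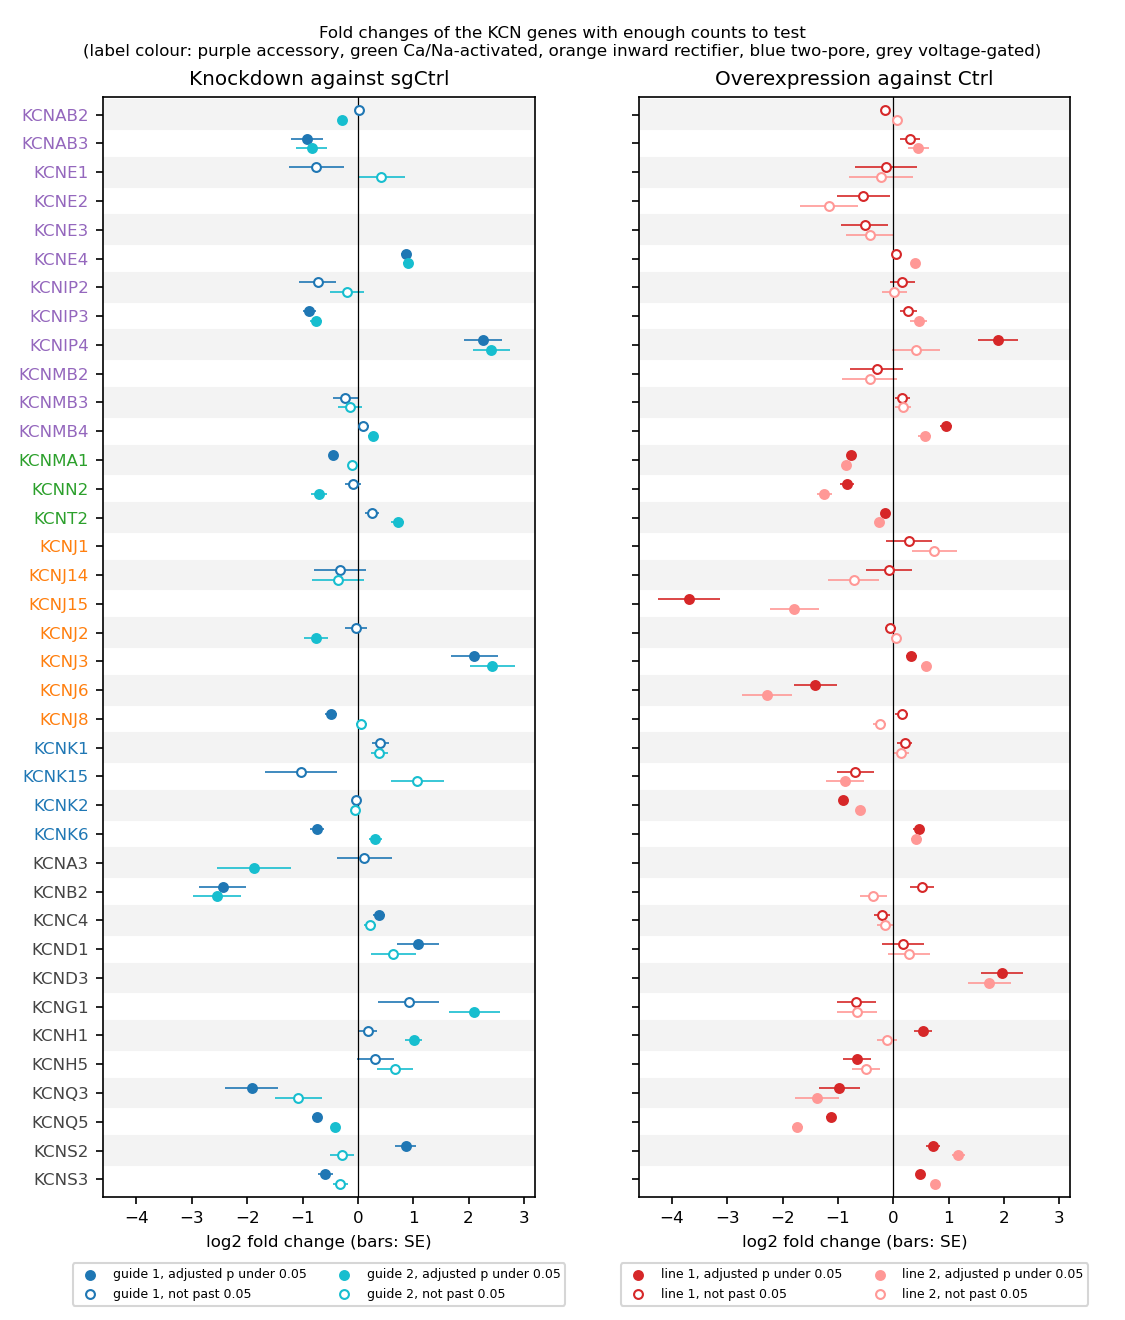
Log2 fold change (horizontal axis, bars are SE) of 38 of the 39 tested KCN genes, with the guides against sgCtrl on the left and the lines against Ctrl on the right; filled points passed an adjusted p of 0.05. Points spread to both sides of 0 in every family except the calcium- and sodium-activated channels in the lines, where KCNMA1, KCNN2 and KCNT2 are all lower.

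Of the 12 voltage-gated alpha subunits tested in this table, 8 passed in line 1 and 5 in line 2. Of all genes 39.6% and 38.5% passed, so the share in line 2 (41.7%) was near that of all genes. KCNQ5 stood at 30.6, 31.5 and 32.0 CPM in Ctrl, 13.6, 15.6 and 13.96 in line 1 and 7.52, 9.49 and 11.1 in line 2. The 3 groups did not overlap. KCNQ5 fell by 1.13 on the log2 scale in line 1 (SE 0.0975, adjusted p = 7.56e-11) and by 1.73 in line 2 (SE 0.104, adjusted p = 2.16e-14), and line 2 was below line 1 (-0.60 ± 0.108, adjusted p = 0.000191). KCNQ3 (chr8:132120859-132481095), its partner in the M-type current, stood at 0.819, 1.02 and 1.08 CPM in Ctrl, 0.394, 0.405 and 0.673 in line 1 and 0.320, 0.370 and 0.410 in line 2. All line libraries lay below the controls, with log2 fold changes of -0.97 ± 0.369 (adjusted p = 0.0363) and -1.38 ± 0.399 (adjusted p = 0.00658). The line 1 call was lost with DESeq2 (0.0725), with no low-count filter (0.0819), without Ctrl replicate 2 or 3 (0.103 and 0.107) and without 2 of the 3 line 1 libraries in turn (0.146 and 0.118).

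The silent subunits KCNS2 and KCNS3 rose. KCNS2 stood at 5.85, 5.08 and 5.58 CPM in Ctrl, 8.799, 10.3 and 8.15 in line 1 and 13.6, 12.3 and 11.5 in line 2. It rose by 0.72 ± 0.122 on the log2 scale (adjusted p = 1.71e-05) and 1.18 ± 0.121 (adjusted p = 2.70e-09), with no overlap between any of the 3 groups. KCNS3 (chr2:17877847-18361616) stood at 19.99, 20.7 and 23.4 CPM in Ctrl, 31.2, 29.2 and 28.8 in line 1 and 36.2, 34.4 and 36.8 in line 2. It rose by 0.48 ± 0.0764 (adjusted p = 6.06e-06) and 0.75 ± 0.0763 (adjusted p = 2.31e-09), again in separate groups.

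KCND3 (chr1:111770662-111989668), a pore subunit of transient A-type current, stood at 0.234, 0.391 and 0.362 CPM in Ctrl, 1.22, 1.39 and 1.27 in line 1 and 0.746, 1.06 and 1.43 in line 2. Every line library was above the controls, and the log2 fold changes were 1.96 ± 0.373 (adjusted p = 8.08e-05) and 1.73 ± 0.386 (adjusted p = 0.000581).

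Some voltage-gated genes passed in a single line. KCNH1 stood at 2.73, 3.87 and 3.31 CPM in Ctrl, 4.44, 4.86 and 5.06 in line 1 and 2.93, 2.82 and 3.36 in line 2. It rose in line 1 (0.53 ± 0.162, adjusted p = 0.00928) and not in line 2 (-0.11 ± 0.175, adjusted p = 0.650), and the lines differed (-0.65 ± 0.166, adjusted p = 0.00813). The line 1 rise was lost without Ctrl replicate 1 (adjusted p = 0.0841). KCNH5 (chr14:62699464-63102037), of the same ether-a-go-go family, stood at 1.91, 2.31 and 1.76 CPM in Ctrl, 1.18, 1.48 and 1.15 in line 1 and 1.92, 1.20 and 1.19 in line 2. It was lower in line 1 (-0.66 ± 0.251, adjusted p = 0.0360) and stood at -0.50 ± 0.253 in line 2 (adjusted p = 0.124). The KCNH5 call was lost with DESeq2 (0.0657), with no low-count filter (0.0590), without Ctrl replicate 1 or 2 (0.0614 and 0.158) and without 2 of the 3 line 1 libraries in turn (0.106 and 0.113).

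KCNB2, the KCN gene that fell most with the guides, stood at 1.52, 1.60 and 1.76 CPM in Ctrl, 2.08, 2.56 and 2.33 in line 1 and 1.44, 1.30 and 1.07 in line 2. The line 1 libraries lay above the controls and those of line 2 below them. Neither line differed from Ctrl at the threshold (0.51 ± 0.220, adjusted p = 0.0642, and -0.36 ± 0.245, adjusted p = 0.254), while the difference of line 2 from line 1 was -0.88 ± 0.232 (adjusted p = 0.0103). That difference was lost without the second line 1 library (adjusted p = 0.0534) or line 2 replicate 3 (0.0506).

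Among 12 accessory subunits, 2 passed in line 1 (16.7%) and 4 in line 2 (33.3%), all higher. Of all genes 39.6% and 38.5% passed, and 19.5% and 18.9% passed as higher. KCNMB4 (chr12:70366290-70434292) stood at 6.04, 5.98 and 6.30 CPM in Ctrl, 12.5, 11.9 and 11.0 in line 1 and 8.10, 8.84 and 10.1 in line 2. All line libraries were above the controls and line 1 was the higher. KCNMB4 rose by 0.95 ± 0.114 on the log2 scale (adjusted p = 4.71e-08) and 0.57 ± 0.118 (adjusted p = 0.000254). KCNIP4 stood at 0.585, 0.469 and 0.155 CPM in Ctrl, 1.97, 1.35 and 1.39 in line 1 and 0.640, 0.555 and 0.492 in line 2. It rose in line 1 alone (1.90 ± 0.366, adjusted p = 9.94e-05), with 0.41 ± 0.433 in line 2 (adjusted p = 0.494), and the lines differed (-1.49 ± 0.356, adjusted p = 0.00438). Without the first line 1 library, at 1.97 CPM, that difference missed the threshold (adjusted p = 0.0539).

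KCNE4 stood at 19.99, 20.4 and 17.3 CPM in Ctrl, 19.9, 19.3 and 20.9 in line 1 and 26.9, 23.9 and 25.3 in line 2. It rose in line 2 alone (0.40 ± 0.0850, adjusted p = 0.000370; 0.06 ± 0.0854 in line 1, adjusted p = 0.635), and the lines differed (0.34 ± 0.0843, adjusted p = 0.00614). KCNIP3 stood at 4.33, 4.65 and 4.08 CPM in Ctrl, 4.36, 5.35 and 6.13 in line 1 and 5.22, 5.60 and 7.09 in line 2, and KCNAB3 at 3.51, 3.01 and 3.56, then 3.51, 4.63 and 4.27, then 4.48, 5.92 and 3.44. Each passed in line 2 (KCNIP3 0.46 ± 0.154, adjusted p = 0.0182, and KCNAB3 0.46 ± 0.183, adjusted p = 0.0493). KCNIP3 was lost without Ctrl replicate 1 or 3 (0.0522 and 0.0556) or line 2 replicate 3 (0.153). KCNAB3 overlapped the controls and was lost with DESeq2 (0.0799), with other size factors (0.0512), with a stricter count filter (0.0523) and without 7 of the libraries in turn (0.0524 to 0.375, the highest without the second line 2 library). KCNAB2 had no call in either line (28.4 to 38.4 CPM over the line libraries, 31.9 to 32.5 in Ctrl).

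Of 7 inward rectifiers, 3 passed in each line (42.9%), near the shares of all genes (39.6% and 38.5%). KCNJ15 (chr21:38155549-38307357), known from kidney, stood at 0.702, 1.13 and 0.930 CPM in Ctrl, 0.0358, 0.0899 and 0.0791 in line 1 and 0.267, 0.278 and 0.246 in line 2. The counts summed over each group were 65, 5 and 17, and no line library reached a control. The log2 fold change was -3.69 ± 0.556 in line 1 (adjusted p = 2.80e-06) and -1.79 ± 0.446 in line 2 (adjusted p = 0.00183), and the lines did not differ at the threshold (adjusted p = 0.0745). KCNJ6 (chr21:37607373-38121345), a G-protein-gated subunit that assembles with KCNJ3, stood at 1.05, 0.899 and 1.29 CPM in Ctrl, 0.250, 0.405 and 0.554 in line 1 and 0.213, 0.278 and 0.164 in line 2. It fell by 1.41 on the log2 scale in line 1 (SE 0.390, adjusted p = 0.00439) and by 2.28 in line 2 (SE 0.449, adjusted p = 0.000140). KCNJ3 itself moved the other way, at 13.3, 14.9 and 15.4 CPM in Ctrl, 17.8, 19.2 and 17.5 in line 1 and 22.4, 19.4 and 23.6 in line 2. KCNJ3 rose by 0.33 ± 0.0937 (adjusted p = 0.00601) and 0.59 ± 0.0935 (adjusted p = 6.63e-06), and the line 1 call was lost without Ctrl replicate 1 (adjusted p = 0.0547).

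Of the 4 two-pore-domain channels, KCNK2 (chr1:215005775-215237090) fell and KCNK6 rose. KCNK2 stood at 113, 100 and 113 CPM in Ctrl, 56.9, 58.5 and 59.1 in line 1 and 68.9, 72.8 and 73.1 in line 2. The 3 groups were separate, with line 1 lowest. KCNK2 fell by 0.90 on the log2 scale in line 1 (SE 0.0575, adjusted p = 6.53e-14) and by 0.60 in line 2 (SE 0.0572, adjusted p = 5.51e-10), and the lines differed by 0.30 ± 0.0584 (adjusted p = 0.000530). KCNK6 stood at 11.0, 11.2 and 12.4 CPM in Ctrl, 15.02, 14.8 and 17.5 in line 1 and 14.5, 16.2 and 15.4 in line 2. It rose by 0.46 ± 0.0981 (adjusted p = 0.000345) and 0.42 ± 0.0995 (adjusted p = 0.00113). KCNK15 stood at 1.09, 1.68 and 0.826 CPM in Ctrl, 0.823, 0.764 and 0.673 in line 1 and 0.533, 0.648 and 0.779 in line 2, and was lower in line 2 (-0.88 ± 0.346, adjusted p = 0.0447). Its line 2 call was lost with DESeq2 (0.0766), with no low-count filter (0.0762) and without 7 of the libraries in turn (0.0542 to 0.313, the highest without Ctrl replicate 2).

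All 3 calcium- and sodium-activated channels fell in each line, where 20.1% and 19.6% of all genes did. With 3 genes this count is a description. KCNMA1 stood at 71.8, 76.5 and 75.4 CPM in Ctrl, 43.6, 44.6 and 44.1 in line 1 and 43.0, 39.6 and 40.8 in line 2. The line libraries stood far below the controls and near each other. KCNMA1 fell by 0.76 on the log2 scale in line 1 (SE 0.0582, adjusted p = 4.86e-12) and by 0.86 in line 2 (SE 0.0591, adjusted p = 4.67e-13), while KCNMB4, its accessory subunit, rose. KCNN2 stood at 13.9, 13.5 and 11.5 CPM in Ctrl, 5.90, 7.96 and 8.03 in line 1 and 6.34, 4.91 and 5.25 in line 2, and fell by 0.84 and 1.25 (adjusted p = 2.29e-06 and 5.17e-09). KCNT2 stood at 59.8, 55.4 and 54.4 CPM in Ctrl, 50.3, 51.5 and 50.4 in line 1 and 45.6, 47.1 and 49.3 in line 2, a small fall of 0.16 and 0.26 (adjusted p = 0.0352 and 0.00106). The line 1 call of KCNT2 was lost with no low-count filter (0.0967), without Ctrl replicate 1 (0.203) and without each line 1 library in turn (0.0979, 0.0715 and 0.0997).

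**Figure D4:**
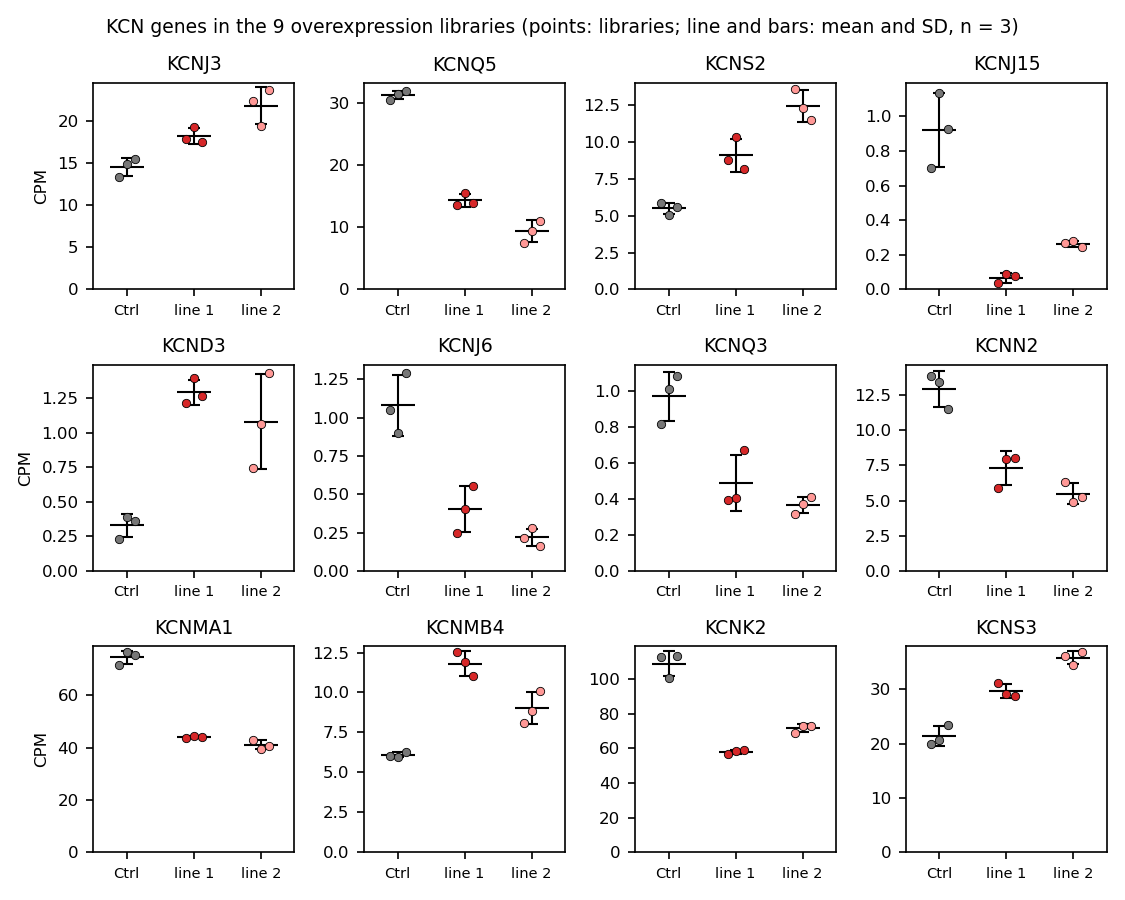
CPM (vertical axis, starting at 0) of 12 KCN genes in the 9 overexpression libraries, in panels by gene: points are libraries, and the line and bars are the group mean and SD (n = 3). KCNQ5, KCNJ15, KCNJ6, KCNQ3, KCNN2, KCNMA1 and KCNK2 lie below Ctrl in every library of both lines, and KCNJ3, KCNS2, KCND3, KCNMB4 and KCNS3 lie above it.

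Compared directly, the lines differed in 10 of 38 KCN genes, where 12.4% of all genes did. In line 2, 4 were higher (6.18% of all genes) and 6 lower (6.19%), and 1 of the 10, KCNIP4, differed by at least 2-fold (1.19%). Besides the differences above, KCNS2 and KCNS3 were higher in line 2 (0.45 ± 0.113, adjusted p = 0.00627, and 0.27 ± 0.0739, adjusted p = 0.0144), and KCNMB4 and KCNJ8 were lower (-0.38 ± 0.109, adjusted p = 0.0180, and -0.40 ± 0.117, adjusted p = 0.0222). These 4 were lost without single libraries. KCNS2 reached 0.0559 without the last line 1 library. KCNS3 reached 0.0598 and 0.0733 without the second or the last line 1 library and 0.0536 without the first of line 2. KCNMB4 reached 0.104 and 0.0592 without the first or second line 1 library and 0.102 and 0.0665 without the first or second of line 2. KCNJ8 reached 0.0746 and 0.0894 without the first or the last of line 1, and 0.0921 and 0.0770 without the first or the last of line 2. Over the 9 libraries, the log2 CPM of KCNK2 (Pearson r 0.953), KCNMA1 (0.897) and KCNQ3 (0.808) ran most like that of KCNJ15, a description only.

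Lowering and raising PURPL gave changes of opposite direction in some of these genes and of the same direction in others. KCNQ5 fell in all 4 comparisons with a control, KCNJ3 rose in all 4, and KCNIP3 and KCNAB3 fell with each guide and rose in line 2. A joint fit of all 18 libraries set the mean guide effect against the mean line effect. They differed in 18 of 39 KCN genes, where 33.6% of all 15166 genes passed. The guide effect was the higher in 10 (18.0% of all genes) and the lower in 8 (15.6%), and 8 differed by at least 2-fold (7.54%). Of the 31 KCN genes tested in both tables, 19 had mean effects of the same sign and 12 of opposite sign. Across those genes Pearson's r between the mean effects was 0.32, and it was 0.0528 across all 13638 genes tested in both tables (7136 of the same sign). Genes are not independent replicates, and these values are descriptions.

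The largest differences between the guide and line effects were in KCNB2 (mean log2 fold change -2.49 with the guides and 0.07 in the lines, difference -2.57 ± 0.397, adjusted p = 1.15e-06), KCND3 (difference -2.20 ± 0.778, adjusted p = 0.0251) and KCNG1 (1.51 and -0.66, difference 2.19 ± 0.552, adjusted p = 0.00161). KCNG1 stood at 0.974, 1.17 and 1.14 CPM in Ctrl, 0.608, 0.450 and 0.989 in line 1 and 0.480, 0.602 and 0.942 in line 2, without a call in either line (adjusted p = 0.137 and 0.151). In the knockdown table KCND3 had only 8 to 11 counts a group, and its difference was lost without sgCtrl replicate 1 or 2 (0.0777 and 0.212) or Ctrl replicate 1 (0.0568).

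Among genes with negative changes with both guides and positive ones in both lines, KCNIP3 differed by -1.17 ± 0.159 (adjusted p = 8.16e-08) and KCNAB3 by -1.25 ± 0.288 (adjusted p = 0.000591). KCNS3, also of this kind, differed by -1.06 ± 0.129 (adjusted p = 6.22e-09). KCNK6, which fell with guide 1 and rose with guide 2 and in both lines, differed by -0.64 ± 0.135 (adjusted p = 0.000165). KCNH5, with positive changes with the guides and negative ones in the lines, differed by 1.08 ± 0.356 (adjusted p = 0.0162). It stood at 0.867, 1.01 and 1.17 CPM in sgCtrl, 0.934, 1.43 and 1.48 with guide 1 and 1.74, 1.68 and 1.49 with guide 2. The KCNH5 difference was lost without sgCtrl replicate 1 or Ctrl replicate 2 (0.0547 and 0.0530), and that of KCNS2 (-0.66 ± 0.207, adjusted p = 0.0113) without sgCtrl replicate 2 (0.0855).

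Other differences lay between effects of unequal size. KCNJ3 rose more with the guides (difference 1.83 ± 0.351, adjusted p = 4.97e-05), and KCNQ5 fell more in the lines (0.86 ± 0.114, adjusted p = 4.87e-08). KCNMA1, KCNN2, KCNT2 and KCNK2 had lower effects in the lines (differences 0.53, 0.65, 0.70 and 0.72, adjusted p = 1.43e-07, 0.00206, 8.28e-07 and 8.35e-10). Of these, KCNT2 rose with guide 2, and KCNK2 passed with neither guide. KCNE4 and KCNC4 had higher effects with the guides (0.67 and 0.49, adjusted p = 4.96e-06 and 0.00894) and KCNMB4 a higher effect in the lines (-0.57, adjusted p = 0.000663). KCNQ3 fell in the lines and with guide 1, and its mean effects did not differ at the threshold (adjusted p = 0.662). KCNIP4, higher with the guides and in line 1, did not pass either (difference 1.20 ± 0.504, adjusted p = 0.0607).

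**Figure D5:**
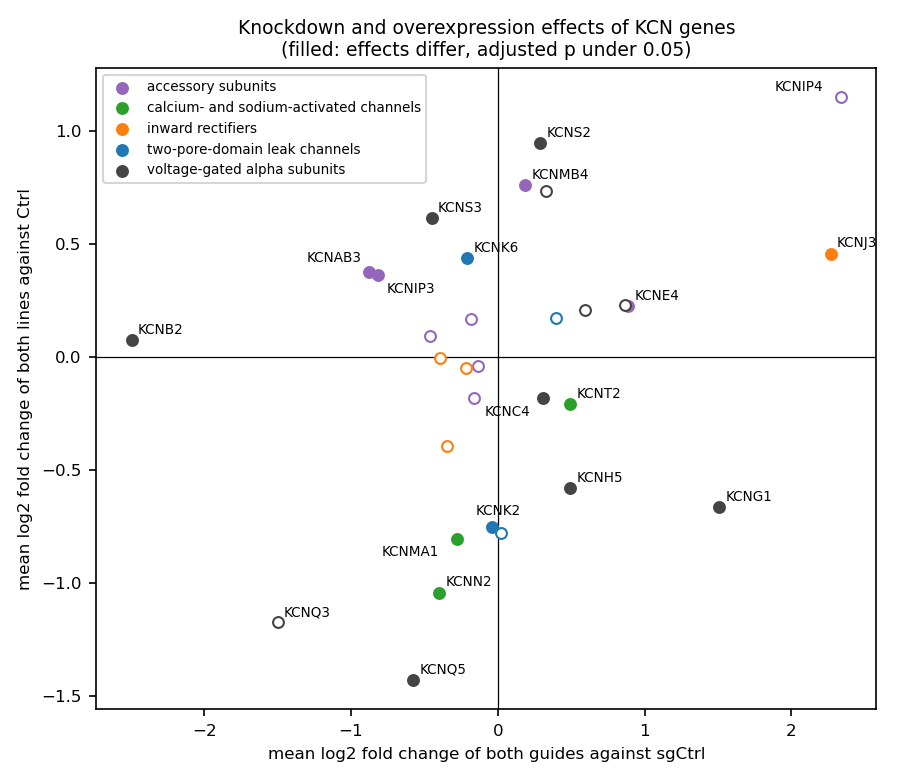
Mean log2 fold change of both guides against sgCtrl (horizontal axis) and of both lines against Ctrl (vertical axis) for the 31 KCN genes tested in both tables, coloured by family; filled points differ between the experiments at an adjusted p of 0.05. KCNJ3 and KCNIP4 lie far right with positive values in the lines, KCNQ3 and KCNQ5 lie down and left, and KCNB2 lies far left near 0 in the lines.

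The starting levels of some KCN genes lay apart in the control groups of the 2 experiments, which were not compared by a test. With all libraries scaled together, KCNJ3 stood at 0.346 ± 0.0399 CPM (SD, n = 3) in sgCtrl and 14.7 ± 1.14 in Ctrl, so that its rise with the guides ended far below the level of any overexpression library. KCNT2 stood at 9.83 ± 1.19 CPM in sgCtrl and 57.2 ± 2.86 in Ctrl, and KCNK2 at 38.0 ± 1.73 and 110 ± 7.31. KCNIP3 (18.8 ± 0.802 and 4.41 ± 0.293) and KCNMB4 (26.0 ± 4.43 and 6.18 ± 0.173) were higher in sgCtrl. The experiment and the control cannot be told apart in these values.

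Potassium is also moved by genes without a KCN name, and 34 of them (sodium-potassium pump subunits and their FXYD regulators, cotransporters, exchangers and others) were looked up, 5 of them at 0 counts throughout. Of 14 tested in the knockdown table, 6 passed with guide 1 (2 higher, 4 lower) and 4 with guide 2 (all lower), with median log2 fold changes of -0.12 in each, where 24.5% and 24.4% of all genes passed. Of 15 tested in the overexpression table, 8 passed in line 1 (3 higher, 5 lower) and 7 in line 2 (3 higher, 4 lower), where 39.6% and 38.5% of all genes did. The shares with guide 2 (28.6%) and in line 2 (46.7%) were near those of all genes. ATP1B3, a pump beta subunit, fell from 323 CPM (mean of sgCtrl) to 245 and 252 with the guides, and from 247 in Ctrl to 190 and 214 in the lines. ATP1B1, another beta subunit, rose from 45.0 CPM in Ctrl to 67.5 and 59.7, and SLC24A3, a potassium-dependent sodium-calcium exchanger, from 4.56 to 9.59 and 11.0 (adjusted p = 3.91e-08 and 1.66e-09). FXYD5, a pump regulator, fell in all 4 comparisons with a control, by 0.19 to 0.29 on the log2 scale. TMEM38B, a potassium-permeable channel of the endoplasmic reticulum, fell in the lines by 0.44 and 0.53.

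Of 14 proteins that bind or regulate KCN channels without a KCN name, 3 were at 0 counts, and 6 could be tested in each table. One of the 3 is CALM2, a calmodulin gene that cells use in general, so its 0 says nothing of its expression. With each guide 4 of the 6 were lower, where 12.9% (guide 1) and 12.4% (guide 2) of all genes were. Another of the 6, ABCC9, rose with guide 2 (0.29 on the log2 scale, adjusted p = 0.0037), where 11.9% of all genes did. It stood at -0.17 with guide 1 (adjusted p = 0.101), and the guides differed (0.46, adjusted p = 5.38e-05). NEDD4L, a ubiquitin ligase that acts on KCNQ channels, fell from a mean of 62.3 CPM in sgCtrl to 42.1 and 49.2 (adjusted p = 2.02e-07 and 0.000361) and from 78.7 in Ctrl to 46.1 and 50.7 in the lines. SGK1, a kinase that acts on NEDD4L, fell with the guides (by 0.34 and 0.42 on the log2 scale) and rose in the lines (0.35 and 0.22). CALM3, a calmodulin gene, fell with the guides by 0.36 and 0.43 and stood at -0.08 in line 1 (adjusted p = 0.331) and -0.20 in line 2 (adjusted p = 0.00938). In the lines, 3 of 6 passed in line 1 (2 higher, 1 lower) and 4 in line 2 (1 higher, 3 lower), where 39.6% and 38.5% of all genes passed. With 6 genes these counts are descriptions.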

How the data were processed

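The authors deposited raw read counts per gene in 2 tables of 9 libraries each, 1 per experiment, with position, strand, type and gene span. Per the labels' protocols, poly(A) RNA was fragmented, reverse-transcribed from random hexamers, PCR-amplified (18 cycles) and sequenced from both ends. Software listed per the submitters' processing notes comprises HISAT2 2.1.0, featureCounts 2.0.1, Subread, SAMtools 1.11, DESeq2 1.34.0, cutadapt 3.3 and FastQC 0.11.9, with builds hg38 and GRCh38.p13. The annotation release and strand setting were not given in the sources used here, and no molecular identifiers are described. Of the deposited count columns 0 were left unused, and 5 overexpression columns carry no replicate number; they entered as unnumbered libraries of their group and are called by their order in the table. Genomic DNA is the molecule in the labels, but their protocol describes RNA and was followed.

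Each table was fitted on its own in R 4.3.3 with edgeR 4.0.16: filterByExpr by group (min.count 10, min.total.count 15), TMM scaling and the robust quasi-likelihood test on all 9 libraries, with 6 residual degrees of freedom. Benjamini-Hochberg adjustment ran over all genes tested, with a threshold of 0.05. A joint fit of all 18 libraries compared the mean guide effect with the mean line effect. CPM are TMM-scaled and were scaled per table except where stated. Errors of log2 fold changes are standard errors. The fits were tested on simulated data. Alternatives were DESeq2 1.42.0, RLE size factors, no low-count filter, min.count 30, each library left out, the replicate block and members without same-strand overlap. Replicate libraries correlated at 0.992 to 0.996 and none was a copy of another.

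The KCN genes, the lists and the tests were chosen with earlier results of these data known. Genes are named with the value in every library where both arms of a table passed (at most 12 per table), where the arms differed (at most 4 per table), where guide and line effects differed (at most 8), or as the 5 with the most counts. Other genes past the threshold are given by fold change, except a few that are counted but not reported by name here. The lists were potassium transport, channel partners and 7 sets of cell type markers.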

Additional observations from a re-analysis of the deposited data

Results flagged for a closer look

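In 11 KCN genes guide 2 differed from guide 1, and in 10 line 2 differed from line 1, by edgeR's quasi-likelihood test (adjusted p under 0.05). Values are log2 differences of arm 2 from arm 1.

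Between the guides, KCNK15 (2.11), KCNK6 (1.05), KCNH1 (0.84), KCNJ8 (0.55), KCNT2 (0.47), KCNQ5 (0.34) and KCNMA1 (0.34) were higher with guide 2. KCNS2 (-1.15), KCNJ2 (-0.72), KCNN2 (-0.61) and KCNAB2 (-0.29) were lower. KCNK6 is the gene of these that passed against sgCtrl in opposite directions.

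Between the lines, KCNS2 (0.45), KCNE4 (0.34), KCNK2 (0.30) and KCNS3 (0.27) were higher in line 2. KCNIP4 (-1.49), KCNB2 (-0.88), KCNH1 (-0.65), KCNQ5 (-0.60), KCNJ8 (-0.40) and KCNMB4 (-0.38) were lower. KCNH1, KCNJ8, KCNQ5 and KCNS2 appear in both sets.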

How the results depend on the processing

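Across the 7 comparisons, 106 calls of single KCN genes were made. Of these, 78 held under all alternatives that tested the gene, 28 were lost under at least 1 and 0 reversed. The lost calls are given beside the results, in 2 genes as a range over the libraries left out. Counting KCN genes without same-strand overlap, which leaves fewer genes by construction, gave 9 calls for guide 1, 9 for guide 2, 5 between the guides, 9 for line 1, 9 for line 2, 6 between the lines and 10 for guide against line effects. With single libraries left out, the same counts ran from 13 to 16, 12 to 16, 8 to 12, 14 to 19, 15 to 19, 7 to 12 and 16 to 20. Under DESeq2, RLE size factors, either count filter and the replicate block, each count stayed within 1.5 times its reported value. Same-numbered knockdown libraries correlated at -0.112 to 0.0447 in their deviations, and differently numbered ones at -0.107 to 0.141. No deviation shared by number was seen, which cannot show whether equal numbers mark shared cultures. With the replicate block 15, 16 and 12 genes passed for guide 1, guide 2 and between the guides. No paired analysis was possible because 5 overexpression columns carry no replicate number, which also holds for the joint fit. Size factors of another kind shifted the median of all genes by less than 0.1 on the log2 scale. Of the KCN genes with counts, 46 could not be tested, and 14 of these overlap a same-strand neighbour, where low depth and lost reads cannot be told apart.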

Other observations

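KCNA3, tested in the knockdown table alone, had 20, 21 and 7 counts in the Ctrl libraries, 2, 4 and 2 in line 1 and 3, 1 and 5 in line 2, too few for the filter of the overexpression table. KCNJ6, tested in the overexpression table alone, had 9, 6 and 8 counts in sgCtrl, 2, 3 and 0 with guide 1 and 8, 7 and 5 with guide 2. Neither was tested in those groups. KCNJ15 summed to 5 counts in sgCtrl and 2 with guide 1, a ratio of 2.47 with a 95% counting interval of 0.405 to 26.0.

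The tables also list 26 genes with a KCN symbol that are not protein-coding, 25 of them long noncoding RNAs, and 13 had counts. Of these, 2 could be tested for knockdown and 4 for overexpression. KCNMB2-AS1 fell in each line (log2 fold change -1.38 with adjusted p = 7.11e-07 in line 1, and -1.37 with adjusted p = 1.29e-06 in line 2). It rose with guide 2 (0.80, adjusted p = 0.0170) and not with guide 1 (-0.37, adjusted p = 0.381), and the guides differed (1.17, adjusted p = 0.00254). KCNQ1OT1, the imprinted transcript antisense to KCNQ1, rose in line 1 (0.44, adjusted p = 0.000151) and stood at 0.15 in line 2 (adjusted p = 0.215).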
